A study of Arabidopsis thaliana with 24 samples.

Results

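Transposable element genes are loci that the Arabidopsis annotation lists as genes but that carry the coding remains of transposons, such as transposases and the proteins of retrotransposons. The ones described here start inside the gene-poor stretches around the 5 centromeres, namely 11.5 to 17.7 Mb of chromosome 1, 1.1 to 7.2 Mb of chromosome 2, 10.3 to 17.3 Mb of chromosome 3, 1.5 to 6.3 Mb of chromosome 4 and 9.0 to 16.0 Mb of chromosome 5 (build TAIR10). These windows hold 3341 of the 3901 nuclear transposable element genes, out of 69289 features in the deposited table. The other 560 lie on the chromosome arms.

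DNA methylation was measured by bisulfite sequencing of sorted nuclei of Arabidopsis thaliana, accession Col-0, grown with 16 h of light and 8 h of dark. The study compared 4 genotypes, the wild type wt21, the single mutants ago5 and ago9, and ago59, a label that joins both mutant names and whose alleles the labels do not spell out. One cell type was sperm, taken as 50000 sorted nuclei per replicate from pollen of 35-day-old plants. The other was the stem cells of the shoot tip, taken as 3000 to 4000 nuclei per replicate picked by their mCherry red fluorescence from 7-day-old seedlings. The 24 labelled samples form 8 groups with 2 replicates each, 8 of the 16 stem samples being second sequencing runs, but the table holds 1 column of calls per genotype, cell type and cytosine context, called a pool here. No difference could therefore be set against the spread between replicates, and no p-value is given. The ± sign gives the distance to the bounds of a 95% interval that covers counting error only. Cell type cannot be told apart from organ, age, sorting and number of nuclei.

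Plants methylate cytosines in 3 contexts, H being any base but G. CG methylation is copied at each replication by the methyltransferase MET1, CHG methylation is maintained by CMT3 in a loop with methylation of histone H3 at lysine 9, and CHH methylation is put back by CMT2 or by DRM2. DRM2 is guided by small RNAs that ARGONAUTE (AGO) proteins bind. Transposons in pericentromeric heterochromatin are known to be methylated in all contexts, with CMT2 and the chromatin remodeller DDM1 needed at long elements far from genes. AGO5 and AGO9 are known from reproductive tissues.

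The annotation bore out the gene-poor surroundings. The median distance of a member to the nearest protein-coding gene was 7850 bp, against 858.5 bp for the transposable element genes of the arms. All 3341 members are listed in the reference, as pseudogenes, and 2872 of them have 1 exon. Lengths ran from 123 to 15195 bp with a median of 2048 bp. In 2815 members at least 90% of the length lay in annotated transposable elements. A near-identical copy, with 95% identity over 80% of the length, existed for 800 members (23.9%). Linked by sequence similarity, 2360 members fell into 255 families and 981 stood alone, and the largest family, built by chains of similarity, had 1094 members.

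Some members were not measured. At least 10 calls in each of the 8 pools were found for 3222 members for CG, 3225 for CHG and 3248 for CHH, and values below are over these. Of the 119 members left out in CG, 68.9% had a near-identical copy, against 22.3% of those kept. No call at all was found in CG for 69 members. The pools held between 204779091 calls (ago59 sperm) and 303354876 calls (wt21 stem) over all features, and the median member had 445 to 638 CHG calls.

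A few short stretches show what the measured cytosines look like. CHG sites come in kinds, and of GC content, length and the share of the CCG kind, the last went furthest with the CHG level across members. The first line below is from a member with no CCG among its 62 CHG cytosines, AT2G13010 (chr2:5352838-5353735), and the second from a member in which CCG made up 94.7% of 38, AT5G26283 (chr5:9214236-9217143). Capitals mark CHG sites on either strand. Bases 121 to 240 of the annotated strand are shown (chr2:5353496-5353615 and chr5:9216904-9217023, both on the minus strand).
AT2G13010: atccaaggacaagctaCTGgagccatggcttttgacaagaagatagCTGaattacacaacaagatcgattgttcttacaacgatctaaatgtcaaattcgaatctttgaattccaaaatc
AT5G26283: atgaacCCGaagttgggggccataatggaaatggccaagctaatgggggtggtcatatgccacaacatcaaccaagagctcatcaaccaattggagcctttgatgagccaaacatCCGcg
In wt21 the CHG level of AT2G13010 was 54.6% in stem (95% Wilson interval 50.2 to 59.0%) and 63.4% in sperm (57.8 to 68.8%). That of AT5G26283 was 18.4% in stem (13.1 to 25.1%) and 36.2% in sperm (29.6 to 43.3%). The pair was chosen as the lowest and highest CCG share among members no longer than 3000 bp that have 30 or more CHG cytosines.

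Methylation of the members was dense and even in CG, intermediate in CHG and low in CHH. In the wt21 stem pool the mean level was 80.4% ± 0.0758 in CG, 45.3% ± 0.0949 in CHG and 6.87% ± 0.0245 in CHH. In the wt21 sperm pool it was 93.7% ± 0.0447, 51.9% ± 0.108 and 3.06% ± 0.0221. Sperm was thus higher in CG and CHG and lower in CHH. The spread among members was narrow in CG, where the middle 80% of members lay between 76.8 and 88.3% in stem and between 95.2 and 98.9% in sperm. In CHG it was wide, from 31.5 to 57.0% in stem and from 40.0 to 62.8% in sperm.

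**Figure D1:**
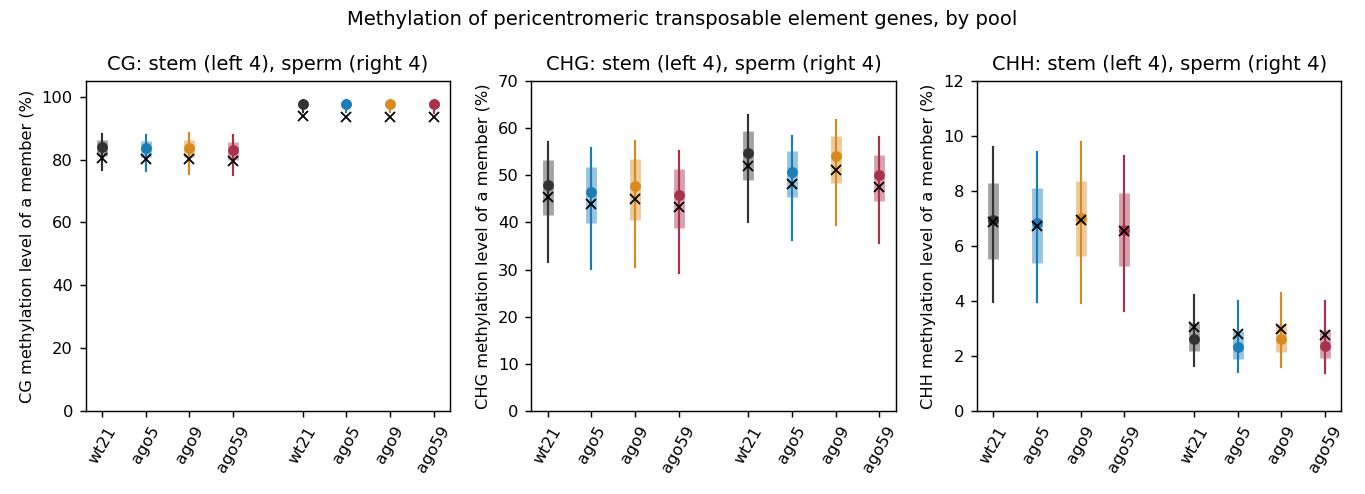
Methylation level of the members (y axes, percent) in CG, CHG and CHH for the 8 pools. Dots are medians, crosses means, thick bars the middle 50% and thin lines the middle 80% of members; in CHG the ago5 sperm pool, with a median of 50.7%, and the ago59 sperm pool sit below the wt21 sperm pool at 54.8%.

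The difference of sperm and stem in wt21 was seen across nearly all members. CG was higher in sperm in 3197 of 3222 members, or 99.2%, against 82.8% of all nuclear features, with a mean difference of 13.3 ± 0.0880 points. It was higher by at least 10 points in 2652 members, or 82.3%, against 25.9% of all nuclear features, and lower by as much in 0 members, against 0.437%. CHG was higher by 6.60 ± 0.144 points on average and by at least 10 points in 753 members, or 23.3%, against 8.77% of all nuclear features, and lower by as much in 24 members, or 0.744%, against 2.48%. These counts depend on the general shift and on the threshold. With each pool centred on its median over members, 64 members (1.99%) were higher in CG by 10 points and 119 (3.69%) lower. Of all nuclear features moved by the same 13.7 points, which the members set, 3.32% were higher and 56.7% lower. In CHG 167 members (5.18%) were then higher and 126 (3.91%) lower, against 3.41 and 5.44% of all nuclear features. At 20 points 182 members (5.65%) were higher in CG and 83 (2.57%) in CHG, shares close to the 5.31 and 2.3% of all nuclear features. CHH differed by -3.82 ± 0.0330 points, and was lower in sperm in 3016 of 3248 members, or 92.9%. Over all nuclear features the mean CHH difference was also negative, at -0.491 ± 0.0176 points, although 32.9% were lower and 63.3% higher in sperm. The median CHH level of all nuclear features was 0.452% in wt21 stem and 1.08% in wt21 sperm, close to the floor described below. The differences of the members recurred in the mutants, with CG higher in sperm by 13.6, 13.6 and 14.1 points for ago5, ago9 and ago59. For CHG the sperm pool of ago5 was higher by 4.14 ± 0.151 points, that of ago9 by 6.12 ± 0.155 and that of ago59 by 4.31 ± 0.154.

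An internal floor for these levels came from 93 members that were under 20% CG methylated in every pool. Over their calls the CHH level was 0.317 to 0.330% in the stem pools and 0.835 to 0.999% in the sperm pools, and the CHG level 0.357 to 0.424% and 0.878 to 1.11%. Chloroplast DNA, which is unmethylated, read 0.303 to 0.312% in CHH in the stem pools. In the sperm pools, with 18577 to 32063 chloroplast CHH calls, it read 1.37% in wt21, 1.34% in ago5, 1.06% in ago59 and 4.56% in ago9. The ago9 sperm value exceeded the mean CHH level of the members in that pool, 2.97%. The floor was higher in sperm than in stem in every genotype, while the CHH level of the members was lower in sperm.

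CHG methylation was lower in ago5 and ago59 than in wt21, most of all in sperm, while CG in sperm hardly moved. Mean CHG in sperm was 51.9% for wt21, 48.1% for ago5, 51.1% for ago9 and 47.5% for ago59. The ago5 pool thus differed from wt21 by -3.86 ± 0.158 points and the ago59 pool by -4.46 ± 0.159 points, a change of -7.43 and -8.59% relative to wt21. For ago9 the difference was -0.806 ± 0.153 points, and -2.47 points when each pool was corrected for the CHH level of its chloroplast DNA, which was highest in ago9 sperm, but -0.785 points with the floor of the unmethylated members in its place. Below wt21 stood 2638 of 3225 members in ago5 (81.8%, against 57.6% of all nuclear features), then 1905 (59.1%, against 51.6%) for ago9 and 2763 (85.7%, against 60.1%) for ago59. All 3 comparisons share the wt21 sperm pool, so that its own deviation enters each.

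The shift was small for a single member and broad over all of them. In ago5 sperm 315 members (9.77%) were lower by at least 10 points and 39 (1.21%) higher, against 5.24 and 2.05% of all nuclear features. In ago59 sperm 353 members (10.9%) were lower and 43 (1.33%) higher, against 5.55 and 1.86%. In ago9 sperm 122 (3.78%) were lower and 63 (1.95%) higher, against 3.29 and 2.47%. In calls simulated at the depths of the ago5 and wt21 sperm pools, 136 unchanged members still differed by at least 10 points, in either direction. Such counts therefore include members that pass by counting error. With each pool centred on its own median over members, 105 members (3.26%) in ago5 were lower by 10 points and 115 (3.57%) higher, against 2.80 and 3.91% of all nuclear features moved by the same amount. In ago59 98 (3.04%) were then lower and 141 (4.37%) higher, against 2.65 and 3.97%. At 20 points, 30 members (0.930%) in ago5 and 29 (0.899%) in ago59 were lower, against 1.37 and 1.26% of all nuclear features. Higher were 8 (0.248%) and 4 (0.124%) members, against 0.536 and 0.410%. Differences of that size were thus less frequent in the members than over all features, but the 2 sets differ in depth. At least 50 CHG calls in every pool were found for 3029 of the 3225 members and for 39955 of the 50758 nuclear features. Whether the contrast holds at equal depth was not tested.

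In the stem pools the same mutants were lower by less. Mean CHG was 45.3% in the wt21 pool and 43.95, 45.02 and 43.2% in the ago5, ago9 and ago59 pools, so that the differences were -1.39 ± 0.136, -0.326 ± 0.145 and -2.17 ± 0.138 points. In ago5 156 members (4.84%) were lower by 10 points, in ago9 144 (4.47%) and in ago59 189 (5.86%), against 3.51, 3.44 and 4.03% of all nuclear features. Higher by as much were 69, 124 and 75 members, or 2.14, 3.84 and 2.33%, against 2.5, 3.32 and 2.35%. The sperm difference minus the stem difference was -2.46 ± 0.208 points for ago5, -2.29 ± 0.210 for ago59 and -0.480 ± 0.211 for ago9. Whether these gaps exceeded the spread between libraries was not tested.

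The pools could also be compared with each other without wt21. The CHG level of ago59 minus that of ago5 was -0.605 ± 0.164 points in sperm and -0.774 ± 0.140 points in stem. Of the members, 139 (4.31%) were lower by at least 10 points and 104 (3.22%) higher in the sperm pools, against 3.63 and 3.10% of all nuclear features. The wt21 pool enters again in the ago59 difference from wt21 minus the sum of those of ago5 and ago9. This was -0.448 ± 0.202 points in stem and 0.201 ± 0.224 points in sperm.

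**Figure D2:**
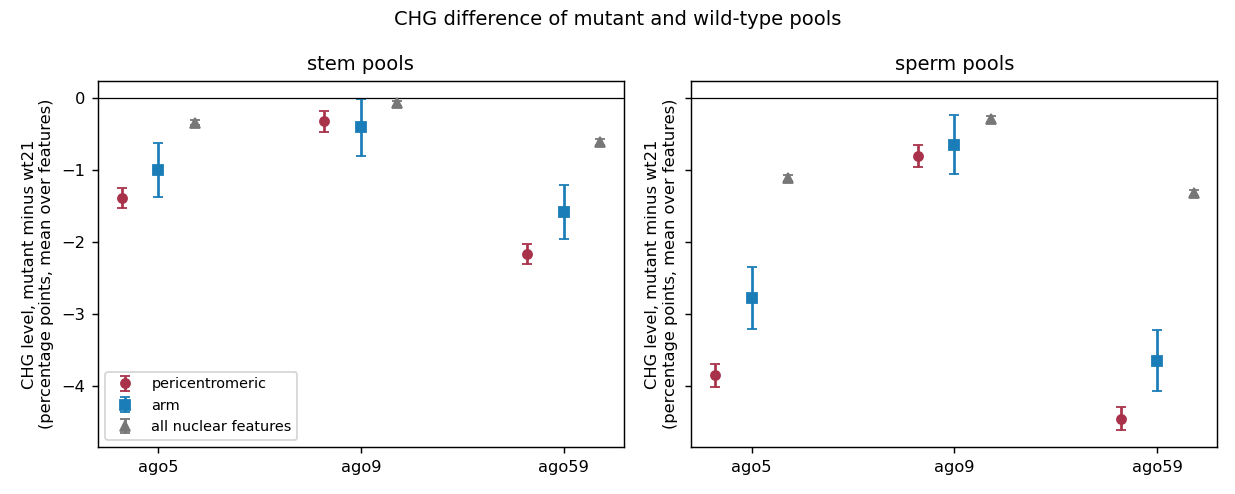
Mean CHG level of each mutant pool minus the wt21 pool of the same cell type (y axis, percentage points) for the pericentromeric members, the transposable element genes of the arms and all nuclear features; bars are 95% intervals for counting error. The members in ago5 and ago59 sperm sit lowest, at -3.86 and -4.46 points.

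CG differed little between genotypes, and CHH by small amounts on a low level. In sperm the CG differences from wt21 were -0.0563 ± 0.0662 points for ago5, -0.0738 ± 0.0641 for ago9 and -0.0988 ± 0.0672 for ago59. In stem they were -0.387 ± 0.109, -0.393 ± 0.117 and -0.921 ± 0.112 points. In stem 52 members (1.61%) were lower in CG by at least 10 points in the ago5 pool, 95 (2.95%) in the ago9 pool and 87 (2.70%) in the ago59 pool, against 3.29, 3.81 and 3.65% of all nuclear features. Higher by as much were 63, 71 and 53 members, against 3.07, 3.36 and 3.22%, so that in ago5 more members were higher than lower. The CHH difference in sperm was -0.266 ± 0.0329 points for ago5, -0.0818 ± 0.0308 for ago9 and -0.306 ± 0.0322 for ago59, at mean levels of 2.75 to 3.06%. Relative to wt21 this was -8.72% in ago5, -2.68% in ago9 and -10.0% in ago59, so that the relative difference was as large as that in CHG in ago5 and ago59. Over all nuclear features it was -9.68, -4.22 and -11.8%. Below wt21 in CHH stood 64.6% of the members of the ago5 pool, 51.9% for ago9 and 66.3% for ago59, where all nuclear features had 56.3, 52.8 and 60.7%. In stem the CHH differences were -0.155 ± 0.0343, 0.0863 ± 0.0378 and -0.314 ± 0.0352 points. The floor was itself lower in ago59 sperm (0.835%) than in wt21 sperm (0.999%).

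Relative to the level, the CHG difference was of similar size in the members and in the arm elements. The ago5 sperm difference of the members minus that of the 527 arm elements measured was -1.08 ± 0.455 points, -0.696 ± 0.475 among elements over 2000 bp and -2.07 as a difference of medians. The members' wt21 sperm level was higher too, 51.9 against 40.8%. Divided by the wt21 level, the ago5 sperm difference was -7.43% in the members, -6.82% in the arm elements and -7.50% over all nuclear features. In ago59 it was -8.59, -8.96 and -8.93%.

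The same relative difference varied little among kinds of members. By chromosome it ran from -6.50% on chromosome 1 to -8.00% on chromosome 3 in ago5 sperm, and from -7.76 to -9.24% in ago59 sperm. In ago5 sperm it ran from -7.13 to -7.97% over classes of length, from -6.95 to -8.18% over 4 bands from the middle of the windows outwards, from -7.06 to -8.94% over classes of GC content and from -7.09 to -7.79% over classes of CCG share. It was -7.68% in the largest family and -7.17% in members without relatives. The family of 51 members around AT1G36120, which have a high CHG level (55.6% in wt21 stem, 61.9% in wt21 sperm), differed by -2.32 ± 0.629 points, or -3.74%, in ago5 sperm and by -4.46 points in ago59 sperm. The family of 35 members around AT1G36830 differed by -3.08 ± 0.982 points in ago5 sperm and by -5.30 points in ago59 sperm.

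Levels themselves differed between kinds of members. The CHG level of wt21 stem fell from 51.5% in members with under 10% CCG among their CHG sites, through 47.2 and 42.0%, to 38.6% in those with 30% and over, and in sperm from 57.2 to 46.0%. Across 3225 members the CCG share and the CHG level of wt21 stem had a Spearman correlation of -0.496, a description over members that share 1 pool and often a family. CHG rose with length from 41.6% in members of up to 1000 bp to 48.0% in those over 2000 and up to 4000 bp in stem. CHH in stem was 6.42% in the shortest and 7.30% in the longest members, with sperm at 3.40 and 2.93%.

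**Figure D3:**
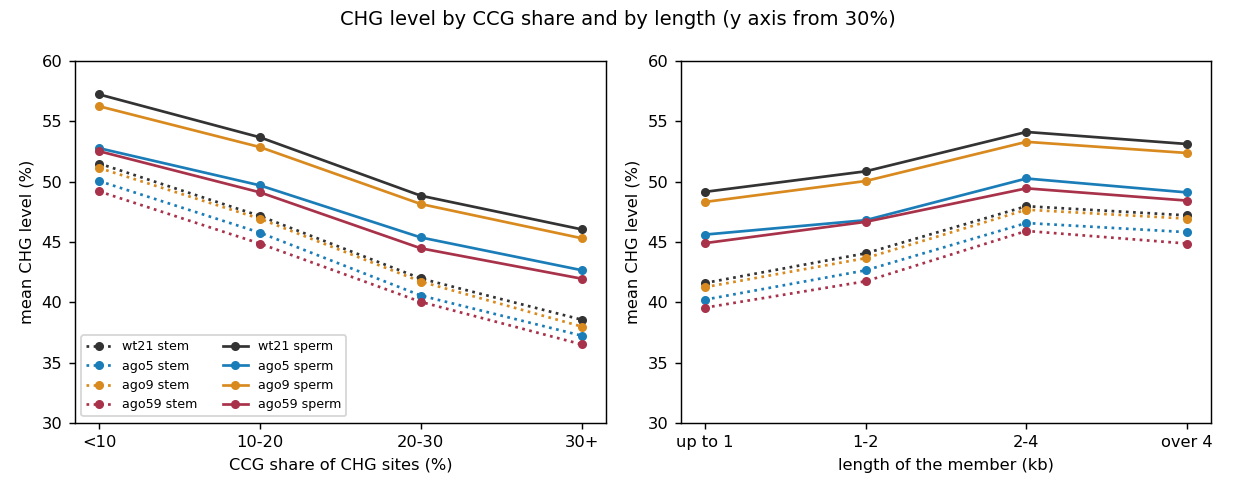
Mean CHG level (y axis, percent, starting at 30%) of members by the share of CCG among their CHG sites and by length, one line per pool (solid for sperm, dotted for stem). The lines run nearly parallel, and in wt21 stem the level falls from 51.5 to 38.6% with the CCG share.

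Mean CG was lower towards the edges of the windows and near genes. With the windows cut into 4 bands of equal width from the middle outwards, CG of wt21 stem was 82.5, 82.2, 76.8 and 74.2%. Across 3222 members the Spearman correlation of CG with this place was 0.00947, so that the order of most members did not follow it. Members within 2 kb of a protein-coding gene had 74.8% and those 10 to 50 kb away 83.1%. Members without relatives had 73.6% and the largest family 83.3%. At the 10 edges of the windows, the nearest member inside had between 67.6% (AT4G09875) and 89.9% (AT2G03650) CG in wt21 stem, and the nearest transposable element gene outside between 0.267% (AT2G03540) and 90.4% (AT2G16610).

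A minority of members had little methylation. Of 3210 members measured in all contexts, 110 (3.43%) were under 20% in CG in wt21 stem, against 122 of 520 on the arms, and 93 of the 110 stayed under 20% in all 8 pools. Their median levels in wt21 stem were 1.80% for CG, 0.346% for CHG and 0.304% for CHH. The internal floor came from 93 of these same members, so it is no separate measure for them. Chloroplast DNA read 0.283% in CHG and 0.303% in CHH in that pool. The median distance of these 110 to a protein-coding gene was 1364 bp, against 8275.5 bp for the 3082 members with CHG of 5% or more. No relative was found for 102 of the 110 (92.7%), against 27.4% of those 3082, and 81 lay in the 2 outer bands of their window. A further 18 members had CG of at least 20% with CHG under 5%. Their medians were 38.1% in CG and 1.16% in CHG, and 13 of them lay within 2 kb of a gene.

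The elements that carry a name in the reference covered this whole range. Of the 10 names, 9 are Sadhu elements, short retroposons of Arabidopsis that do not encode their own proteins and whose copies are known to differ in silencing. For 4 of them bases 121 to 240 of the annotated strand are printed with CG in capitals, to show that methylated and unmethylated copies both carry CG sites. SADHU2-1 is AT1G35112 (chr1:12840879-12840998), SADHU4-1 is AT5G28913 (chr5:10934491-10934610), SADHU3-2 is AT3G42658 (chr3:14750055-14750174) and SADHU7-2 is AT3G31442 (chr3:12804557-12804676), all on the minus strand.
SADHU2-1: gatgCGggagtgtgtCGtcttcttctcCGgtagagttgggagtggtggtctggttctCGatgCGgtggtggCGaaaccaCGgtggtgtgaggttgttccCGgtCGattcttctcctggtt
SADHU4-1: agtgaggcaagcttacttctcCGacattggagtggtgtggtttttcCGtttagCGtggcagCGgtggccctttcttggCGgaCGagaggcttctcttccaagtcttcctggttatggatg
SADHU3-2: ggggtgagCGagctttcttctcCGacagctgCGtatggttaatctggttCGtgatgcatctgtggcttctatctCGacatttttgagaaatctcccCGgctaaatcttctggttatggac
SADHU7-2: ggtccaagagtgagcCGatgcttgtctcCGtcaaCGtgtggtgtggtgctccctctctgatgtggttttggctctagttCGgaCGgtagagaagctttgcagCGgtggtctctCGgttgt
Over their whole length SADHU2-1 has 42 CG sites, SADHU4-1 39, SADHU3-2 43 and SADHU7-2 55.

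SADHU2-1, SADHU4-1 and SADHU1-1 had next to no methylation. CG in SADHU2-1 was 0.119% in wt21 stem from 841 calls and 0.935% in wt21 sperm, and in the other 6 pools it did not pass 0.811%. SADHU4-1 had 0 methylated of 806 CG calls in wt21 stem, which allows up to 0.372%, and 1.19% in wt21 sperm. SADHU1-1 had 1.78 and 2.20%. By contrast SADHU3-2 had 86.2% in wt21 stem and 98.1% in wt21 sperm, SADHU7-2 83.4 and 99.2%, SADHU3-1 90.1 and 97.5%, and SADHU9-1 92.8 and 98.6%. SADHU5-2 reached 79.4 and 81.4%, and in sperm it was higher in every mutant, at 90.9% in ago5, 92.3% in ago9 and 93.1% in ago59. The Wilson interval of wt21 sperm, 77.3 to 85.0%, did not overlap with those of the mutants. All 3 comparisons share that wt21 sperm pool, and the intervals leave out the spread between libraries. Whether the gap exceeded that spread was not tested. SADHU1-3 lay between, at 36.8% in stem and 52.0% in sperm, with 17.4 and 22.5% in CHG. The mutant pools otherwise held to these classes. CG in SADHU2-1, SADHU4-1 and SADHU1-1 did not pass 2.72% in any pool, SADHU1-3 stayed between 36.8 and 53.6%, and the other 5 at 79.4% or more.

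MUG8 (AT5G34853, chr5:13103678-13107090) was methylated in CG alone. It is a MUSTANG gene, a transposase that plants have taken over for a function of their own. Its first 180 bases on the plus strand (chr5:13103678-13103857), with CG in capitals, are shown because they hold the methylated context.
MUG8: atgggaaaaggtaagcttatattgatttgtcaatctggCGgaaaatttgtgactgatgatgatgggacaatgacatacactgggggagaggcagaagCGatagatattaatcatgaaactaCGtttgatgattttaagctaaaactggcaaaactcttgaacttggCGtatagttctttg
CG was 62.9% in wt21 stem and 68.9% in wt21 sperm, while CHG was 0.338 and 1.03% from 2367 and 1949 calls. In the 6 mutant pools CG lay between 61.3 and 70.2%, CHG did not pass 0.890% and CHH did not pass 0.929%. CG methylation without CHG is known from the bodies of housekeeping genes.

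**Figure D4:**
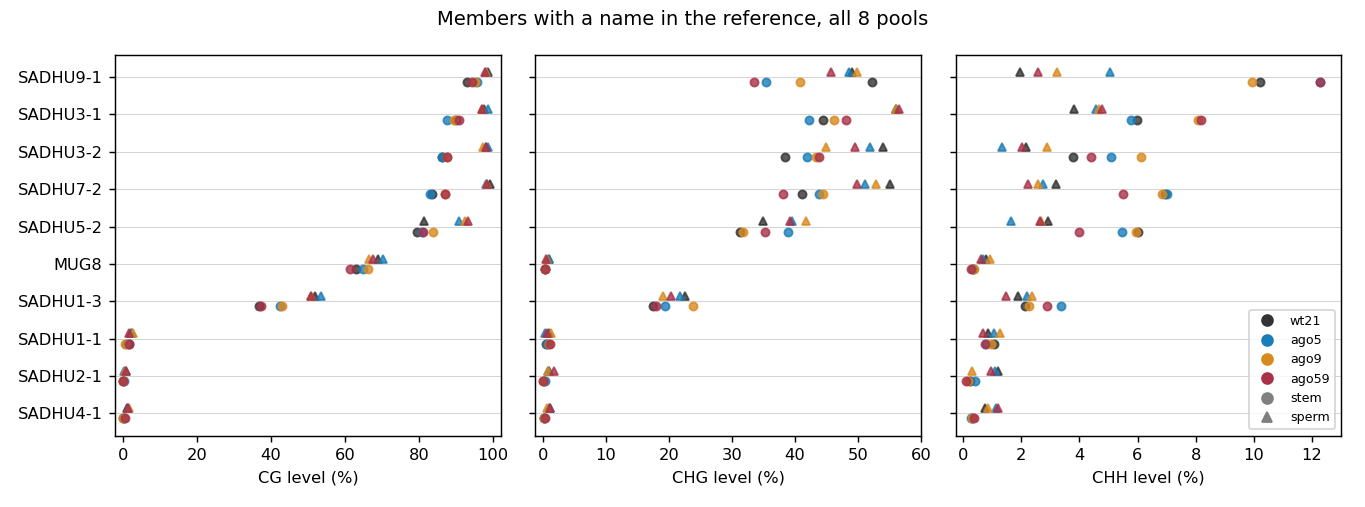
Methylation level (x axes, percent) of the 10 members with a name in the reference, in CG, CHG and CHH; circles are stem and triangles sperm pools, coloured by genotype. SADHU1-1, SADHU2-1 and SADHU4-1 sit near 0 in every pool, and MUG8 is methylated in CG alone.

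A few members differed by far more than the general shift, and did so in stem and in sperm, whose pools come from separate plants. With at least 50 calls in every pool, 4 members were lower than wt21 by at least 20 points of CG in both cell types in ago9, 1 of them also in ago59, and 1 of the 4 also by 20 points of CHG in ago9. Over all nuclear features 33 of 40412 (0.0817%) met the rule for CG in ago9 and 29 (0.0718%) in ago59. The rule for CHG in ago9 was met by 4 of 39955 (0.01%). Among the members with such depth these were 4, 1 and 1, of 3044 in CG and 3029 in CHG. In ago5 there was none for CG, against 12 (0.0297%) of all features. Counts this small do not set the members apart from all features. The demand for both cell types was made after the values were seen. By at least 10 points of CHG in both cell types, 21 of the 3029 members were lower for ago5, 9 for ago9 and 35 for ago59. Of 39955 nuclear features these were 90 (0.225%), 54 (0.135%) and 160 (0.4%). Higher were 1, 3 and 1 members, against 17 (0.0425%), 34 (0.0851%) and 22 (0.0551%).

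AT5G29026 (chr5:11057786-11059041) was lower in ago9, and much less or not in the other mutants. Its first 240 bases on the plus strand (chr5:11057786-11058025), with CHG sites in capitals, are shown since it had the largest CHG fall in ago9 in both cell types.
AT5G29026: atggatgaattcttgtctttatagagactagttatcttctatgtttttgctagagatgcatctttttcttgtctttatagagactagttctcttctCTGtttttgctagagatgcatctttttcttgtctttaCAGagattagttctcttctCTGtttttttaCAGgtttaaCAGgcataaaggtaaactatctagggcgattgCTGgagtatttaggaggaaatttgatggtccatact
CHG in stem was 49.7% for wt21, 47.1% for ago5, 20.3% for ago9 and 42.2% for ago59. In sperm it was 53.5%, 51.7%, 23.2% and 50.4% in the same order. CG in stem was 84.7%, 83.9%, 55.7% and 83.6%, and in sperm 99.1%, 97.5%, 67.3% and 97.8%. The Wilson intervals of the ago9 pools, 17.2 to 23.7% for CHG in stem and 19.4 to 27.4% in sperm, lay clear of those of wt21, 45.6 to 53.7% and 48.7 to 58.3%. The member was chosen for this fall, so the gap follows from the choice and tests nothing. The intervals also leave out the spread between libraries. CHH in stem was 7.15% in wt21 and 2.46% in ago9. The ago59 pools stood near wt21, although that label joins both mutant names. The nearest protein-coding gene is 32808 bp away.

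AT5G35935 (chr5:14083388-14089891), a member of 6504 bp that lies 683 bp from a gene, was lower in CG in every mutant. Its first 240 bases on the minus strand (chr5:14089652-14089891) are printed with CG, the context that was lower, in capitals.
AT5G35935: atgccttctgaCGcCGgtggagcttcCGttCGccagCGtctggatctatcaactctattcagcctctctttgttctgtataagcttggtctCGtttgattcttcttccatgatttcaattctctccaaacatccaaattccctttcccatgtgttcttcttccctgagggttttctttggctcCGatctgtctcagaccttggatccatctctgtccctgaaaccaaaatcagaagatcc
CG in stem was 82.9% for wt21, 68.8% for ago5, 56.1% for ago9 and 57.9% for ago59. In sperm it was 96.9%, 76.0%, 64.3% and 64.4%, each from at least 1341 calls. CHG differed less. In stem it was 49.1% for wt21, 45.8% for ago5, 41.7% for ago9 and 46.9% for ago59, and in sperm 57.4%, 45.2%, 44.5% and 40.3%.

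The other 2 had partial CG methylation in wt21. AT3G27895 (chr3:10352128-10352401), 61 bp from a gene and without CHG methylation, had stem CG of 22.8% for wt21, 21.0% for ago5, 0.578% for ago9 and 25.1% for ago59. In sperm it had 51.4%, 44.6%, 0.680% and 40.0%. AT3G42090 (chr3:14274222-14274699) had 33.3%, 17.9%, 11.8% and 35.3% in stem and 40.2%, 23.8%, 14.9% and 39.5% in sperm, from 76 to 134 calls. In both, the ago59 pools were nearer to wt21 than the ago9 pools were. AT2G14420 (chr2:6129677-6130479) missed the 20 points narrowly, with stem CHG of 39.4% for wt21, 38.9% for ago5, 19.5% for ago9 and 31.3% for ago59 and 45.4%, 36.8%, 24.0% and 31.6% in sperm.

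**Figure D5:**
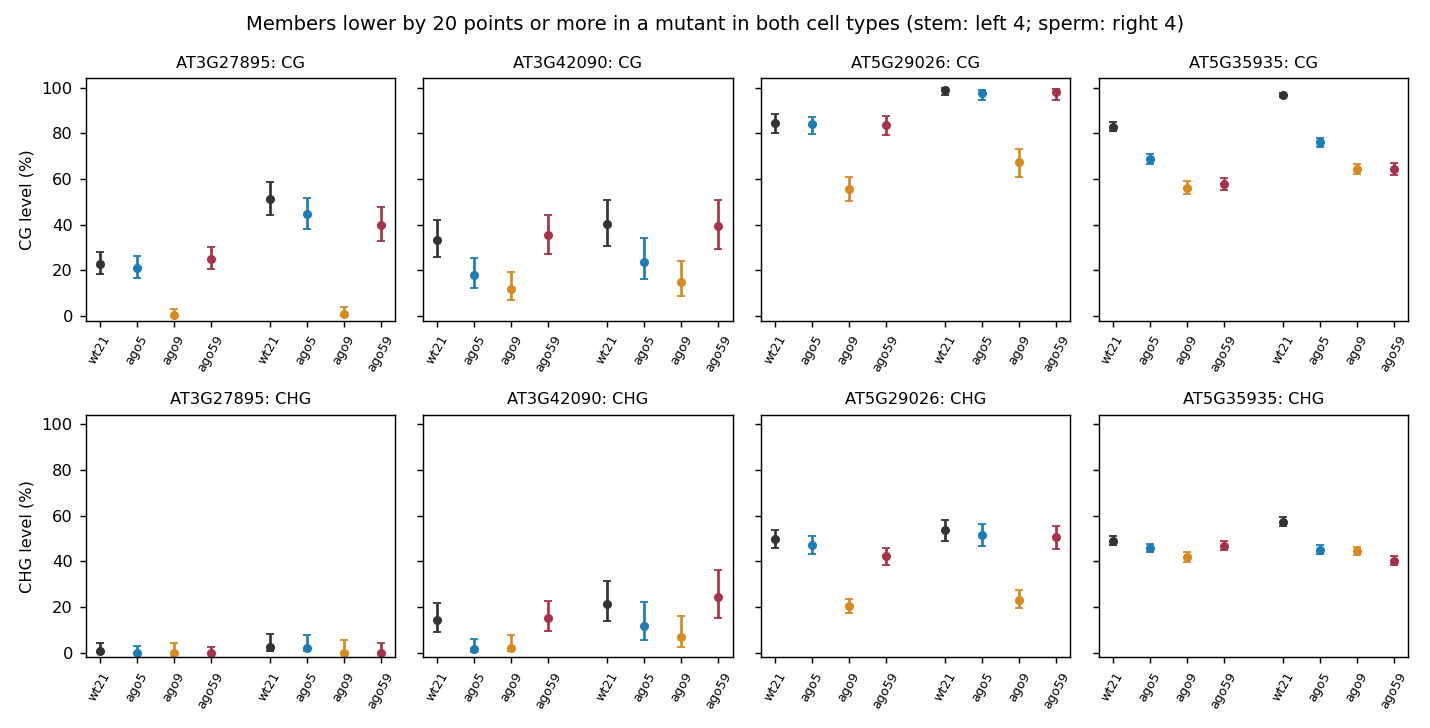
CG (top) and CHG (bottom) level in percent, with 95% Wilson intervals, of the 4 members lower by at least 20 points of CG in ago9 in both cell types; stem pools are left and sperm pools right in each panel. In AT5G29026 the ago9 pools alone are low, at 20.3 and 23.2% in CHG.

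Across members the measured differences of a mutant in stem went weakly or not at all with those in sperm. Across 3029 members with at least 50 CHG calls, Pearson correlations between the stem and the sperm difference were -0.000527 for ago5, 0.0321 for ago9 and 0.0642 for ago59, as a description. In CG they were 0.101, 0.220 and 0.167 over 3044 members. Counting error in each difference lowers such correlations, by an amount that was not tested, so they do not show that the mutant differences are unrelated. The other largest CHG falls rested on few calls, and most were much smaller in the other cell type. CHG of AT3G32176 in stem differed from wt21 by -27.2 points for ago5 and -27.4 points for ago59, at 22.8 and 22.6% from 79 and 53 calls, and in sperm it stood at 51.1% in wt21, 50.9% in ago5 and 37.5% in ago59. AT2G12990 had 60.0% in wt21 sperm and 28.4% in ago5 sperm from 85 and 67 calls, but 45.3 and 39.4% in stem. The largest rise, of AT2G07470 in ago9 stem from 28.4 to 57.0%, compares with 54.5% in wt21 and 57.8% in ago9 sperm. The largest fall in ago59 sperm, of AT3G45360 from 67.0 to 40.9%, compares with 57.3 and 58.4% in stem. In ago9 sperm AT2G15140 followed AT5G29026, with 66.7% in wt21 and 42.9% in ago9 from 105 calls each, and 55.8 and 50.4% in stem.

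CHH methylation reached unusual levels in AT3G43863 (chr3:15717074-15717829). Its first 300 bases on the minus strand (chr3:15717530-15717829) are shown with CACTCGACC, a repeated word of this member, in capitals.
AT3G43863: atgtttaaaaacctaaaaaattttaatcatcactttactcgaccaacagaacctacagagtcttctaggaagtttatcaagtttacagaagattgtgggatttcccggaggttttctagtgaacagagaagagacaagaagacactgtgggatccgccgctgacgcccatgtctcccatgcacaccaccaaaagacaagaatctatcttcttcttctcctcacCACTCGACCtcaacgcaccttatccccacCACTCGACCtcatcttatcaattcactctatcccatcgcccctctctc
The member holds 7 copies of the word, counting either strand. At least 1 copy is found in 433 of the 3341 members (13.0%) and at least 7 in 93. Its annotated strand is 37.4% C and 11.9% G, where the median member has 18.8 and 22.0%, and 6 members have a skew between C and G at least as large. In stem the CHH level was 22.0% for wt21, 28.9% for ago5, 16.6% for ago9 and 30.6% for ago59. In sperm it was 49.2%, 64.6%, 60.8% and 57.0%, each from 1750 to 2503 calls. Sperm was thus higher in each genotype, while the mean over members was lower in sperm. CG in the same pools was 81.3% or more. Depth was unusual too, with 443 CG calls in wt21 stem and 854 in wt21 sperm. Over all members wt21 stem held 1.29 times as many calls as wt21 sperm. Whether read mapping or the bisulfite treatment bears on the levels of AT3G43863 was not tested. Other members with extreme CHH were AT2G13142, with 60.6% in wt21 stem from 132 calls but 19.8 to 29.5% in the mutant stem pools, and AT5G39205, with 33.2% in wt21 sperm and 1.38 to 12.5% in the mutant sperm pools. The sperm pools of AT2G13142, with 94 to 231 calls, read differently, with ago9 alone low at 3.19%, beside 67.1% for wt21, 66.4% for ago5 and 56.0% for ago59. Both are skewed as well, at 24.2% G and 8.32% C in AT2G13142.

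The largest rises from stem to sperm in CG and CHG lay in mitochondrial DNA that sits in chromosome 2. Between 3272149 and 3482066 bp, 16 members match the mitochondrial genome over at least 50% of their length at 95% identity. AT2G07682 (chr2:3292516-3297403) had CG of 29.7% in wt21 stem and 96.9% in wt21 sperm, and AT2G07693 (chr2:3341392-3342812) 22.9 and 100%. Depth moved with this: wt21 stem held 4.32 times as many calls as wt21 sperm in AT2G07682 and 7.19 times in AT2G07693, against 1.29 times over all members. Reads from mitochondria cannot be told apart from reads of the insertion where the sequence is the same. Without the 16 members the mean difference in CG was 13.2 points in place of 13.3.

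AT2G03650 had the highest CHG level of wt21 stem, 79.3%, with 71.1% in wt21 sperm. AT1G33835 had no methylated call in CG or CHG in wt21 stem, from 114 and 100 calls, which allows levels of up to 2.63 and 3.00%. AT4G08750, whose CG was lower in sperm, had 43.1% in wt21 stem and 36.0% in wt21 sperm, and AT2G03970 had 34.9 and 29.5%. CG of AT2G03970 was also low in ago9, at 18.7% in stem and 18.6% in sperm, beside 30.6 and 30.6% in ago5 and 35.7 and 37.0% in ago59. Both had CHG under 7%.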

How the data were processed

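DNA was prepared from sorted nuclei and bisulfite-treated with a Pico Methyl-Seq kit from 1 to 5 ng of DNA, per the labels' protocols, which elsewhere list the molecule as RNA. Trim Galore, Bismark and bedtools 2.30.0 and the build TAIR10 are named in the submitters' processing notes, which give no role or settings. Per the file headers the table holds counts of methylated and of total calls for each feature in each context and pool, and the authors' deposited fraction of methylated calls, which was not used. Levels were computed here as methylated over total calls and given in percent. Whether replicates and runs were summed is not stated, and 0 columns belonged to an unmapped sample.

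Members were found by feature type and start. They, the windows and all lists were chosen with earlier results of these data known. Means are unweighted over members with at least 10 calls in all 8 pools. Differences of at least 10 points were counted, with no test, since there is 1 pool per group. Half-widths come from the binomial variance, with 1 call added to each class, single members have Wilson 95% intervals, and a count of 0 allows 3 calls. Calls on 1 read are not independent. Named members, with at least 50 calls of the context in all pools, are the 2 largest CHG falls and rises for each mutant and cell type, the 2 largest falls and rises from stem to sperm in each context, the lowest and highest level of each context in wt21 stem, those with a name in the reference, and the 3 largest families. Those called lower in both cell types, AT2G14420, AT2G13010, AT5G26283 and the members at window edges were chosen after values were seen. Families are chains of megablast matches (blastn 2.17.0). Sequences, exons and copies come from the RefSeq annotation of TAIR10.1, in which 3338 of 3341 members have the same coordinates. Alternatives were the median, weighting by depth, 1 or 50 calls as minimum, a correction for the chloroplast level, narrower windows, members without copies, members over 2000 bp, centred pools and 20 points. Leaving out the mitochondrial matches and a correction for the unmethylated members were chosen after seeing the data. Counts and intervals were checked on calls simulated for CHG at the depths of the ago5 and wt21 sperm pools. Of 3225 members 200 were changed by 30 points. All 200 passed 10 points, but so did 136 unchanged members, in either direction. The interval held the true mean in 95 of 100 simulations. The calls were drawn independently from the binomial model behind the interval, so this checks the computation only. It does not cover calls linked on reads or the spread between replicates. Python 3.11.15, numpy 2.4.6, pandas 2.3.3, scipy 1.17.1 and matplotlib 3.10.9 were used.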

Additional observations from a re-analysis of the deposited data

Results flagged for a closer look

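In 5 results the differences were opposite in the 2 cell types, and none of these differences was tested. The mean CHH difference of ago9 from wt21 was 0.0863 points in stem and -0.0818 points in sperm, where the mean level was 2.97% in ago9 and 3.06% in wt21. A further 4 named members differed in CHG by at least 10 points in opposite directions. AT2G07470 in ago59 differed by 19.7 points in stem and -10.1 in sperm, and AT3G43863 in ago59 by 19.1 and -12.4. AT3G33235 in ago5 differed by -10.4 points in stem and 20.8 in sperm, and AT5G36020 in ago5 by -11.7 and 10.6. They rest on 74 to 285 calls per pool.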

How the results depend on the processing

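No paired analysis was possible because the columns carry no replicate numbers, and for the same reason no replicate could be left out. Calls per member limit single members, while the means rest on many calls. Of 402 recomputed values, 4 changed sign, but the levels and the counts of members among the 402 could not do so. The CG difference of ago9 in sperm was 0.00606 points in members over 2000 bp in place of -0.0738. The other 3 started within counting error. They were the CHH excess over arm elements in wt21 stem, under 2 settings given at the end, and the ago9 sperm CHG difference set against the arms, which was 0.130 over 2000 bp in place of -0.152. Of the values for the main results, which include the wt21 levels, 85 moved by less than the margin used (counting error, or 1.5 times for counts) and 59 by more. Of the remaining values 163 moved by less and 94 by more, and 1, the CG difference of ago9 in sperm, was reversed.

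With the median over members, wt21 stem levels for CG, CHG and CHH became 84.1, 48.0 and 6.93%, and in sperm 97.8, 54.8 and 2.63%. Over calls they were 79.3, 47.2 and 7.03% in stem and 91.5, 52.6 and 2.86% in sperm. The CHG difference in ago5 stem was -1.25 points as a median and -1.24 in members without a near-identical copy, and in ago59 stem -2.02 in the latter. In ago9 sperm it was -0.642 as a median and -2.47 when corrected for the chloroplast level, whose CHH value in that pool, 4.56%, exceeded that of the members. In ago59 sperm it was -4.66 weighted by depth and -4.68 in members over 2000 bp.

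Between sperm and stem of wt21, the CG difference was 13.2 points as a median, 12.2 weighted by depth, 13.2 with 50 calls, 13.4 in narrower windows and 13.2 without mitochondrial matches. The CHG difference was 6.28 as a median, 5.42 weighted by depth, 6.11 with the chloroplast correction, 6.85 in narrower windows, 6.07 over 2000 bp and 6.30 corrected by unmethylated members. The CHH difference was -4.15, -4.17, -4.87, -3.86, -4.30 and -4.49 under these, -3.85 with 50 calls and -3.63 without near-identical copies.

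At 20 points, 13, 17 and 17 members were lower in CHG in ago5, ago9 and ago59 stem (0.403, 0.527 and 0.527%, against 0.790, 0.865 and 0.977% of all nuclear features). Higher were 13, 18 and 10 (0.403, 0.558 and 0.310%, against 0.640, 0.936 and 0.603%). In sperm 30, 16 and 29 were lower (0.930, 0.496 and 0.899%, against 1.37, 0.792 and 1.26%). Higher in sperm were 8, 10 and 4 (0.248, 0.310 and 0.124%, against 0.536, 0.615 and 0.410%). With pools centred, 109 were lower and 121 higher in ago59 stem (3.38 and 3.75%, against 2.92 and 3.27%), while 105 were lower in ago5 sperm and 98 in ago59 sperm. From stem to sperm 167 members were higher in CHG when centred (5.18%, against 3.41%) and 83 at 20 points (2.57%, against 2.3%), and in CG 64 (1.99%, against 3.32%) and 182 (5.65%, against 5.31%). The excess over arm elements in wt21 stem was 20.0 points in CG, 3.36 as a median and 11.9 over 2000 bp. In CHG it was 8.83, 1.16 and 4.50, and in CHH 0.0222, -0.810 and -0.806. The ago5 and ago59 sperm CHG differences minus those of arm elements were -2.07 and -1.36 as medians. The wt21 sperm minus stem difference in CHH, members minus arm elements, was -0.749 ± 0.138 points over all lengths and 0.226 ± 0.116 over 2000 bp.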
